A study of Mus musculus with 12 samples.

Results

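Genes of fatty acid handling were examined in alveolar macrophages, which live in the air sacs of the lung and clear inhaled matter, after repeated ozone. They form a list of 45 genes in 4 arms: 7 of uptake and activation, 7 of droplet storage, 11 of synthesis and desaturation, and 20 of beta oxidation together with its regulators. All 45 symbols were present among the 55291 of the deposited table, and all 45 passed the filter that left 19633 genes for testing. Macrophages had been flow sorted from the lungs of female C57BL6/NJ mice aged 8 to 11 weeks. In the ozone group 6 mice had breathed 0.8 ppm ozone for 4 hours on each of 4 days in a row, and in the other group 6 mice had breathed filtered air on the same schedule. All lungs were taken 3 days after the last exposure, and each of 2 flow-sort batches held 3 mice of each group.

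Fatty acids enter a cell through transport proteins, are bound by small carrier proteins and are joined to coenzyme A by acyl-CoA synthetases. They are then stored as triglyceride in lipid droplets, built into membranes, lengthened and desaturated, or carried into mitochondria on carnitine and burned by beta oxidation. Alveolar macrophages take up and break down spent surfactant, which is mostly lipid, so the pathway is prominent in these cells.

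Expression is given as variance-stabilized log2-scale values, set so that the filtered-air group of each gene averages 0. They give no abundance, so genes cannot be ranked by level. The scale is compressed where reads are few, so that changes of weakly expressed genes appear smaller than they are. Differences are ozone minus filtered air, with standard errors and p-values from limma and Benjamini-Hochberg adjustment over all 19633 genes. A gene was called when its adjusted p was under 0.05. RNA integrity numbers ran from 8.9 to 9.7, and relative depth, read from what 1 read was worth in each library, ran from 0.869 to 1.21. Total read numbers are not known. In bulk samples, fewer cells of a type and less RNA per cell cannot be told apart.

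Ozone was followed by lower Elovl6 and Pnpla2 and by higher Fads1, and the other 42 members did not pass the test. Of the 45 members, 3 were called, or 6.67% beside 4.25% of all genes tested. They were 2 lower and 1 higher, beside 1.84% and 2.41% of all genes in those directions. Groups did not overlap in 3 members (Pnpla2, Elovl6 and Etfdh), which is also the share called, while over all genes 3.53% did not overlap. At an unadjusted p under 0.05 there were 15 members, or 33.3% beside 16.7% of all genes. Of these 7 were higher and 8 lower, where 8.43% of all genes were higher and 8.29% lower. Among the 17168 genes with every mouse above the lowest value, 18.3% reached that level. The median difference over the members was -0.0058, close to the -0.0033 of all genes, and the median absolute difference was 0.073 beside 0.046. Members were spread in both directions, with differences from -0.46 to 0.27.

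**Figure D1:**
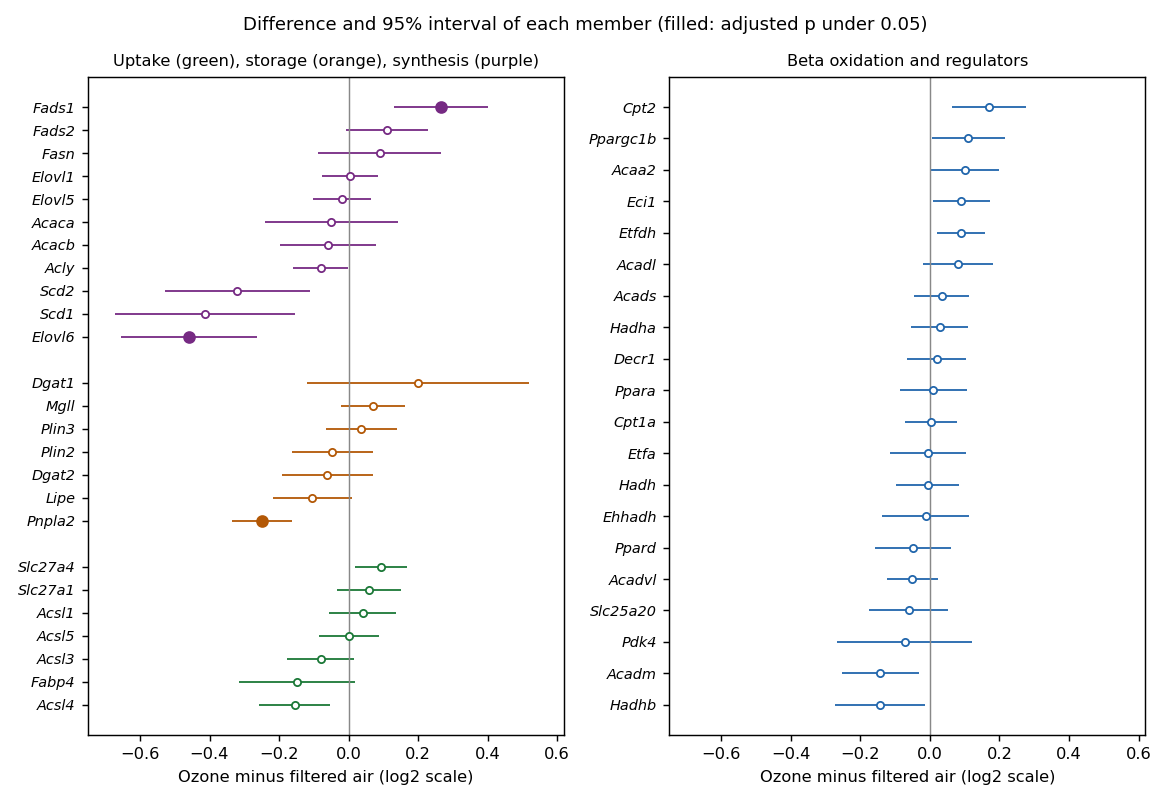
Ozone minus filtered air for each of the 45 members on the log2 scale (horizontal axis), with 95% intervals from limma, coloured by arm. Filled points mark the 3 called members: Elovl6 at -0.46, Pnpla2 at -0.25 and Fads1 at 0.27.

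By arm, 0 of 7 uptake and activation genes, 1 of 7 storage genes, 2 of 11 synthesis genes and 0 of 20 oxidation genes were called. Median differences were 0.0022, -0.047, -0.050 and 0.0061 in the same order. At an unadjusted p under 0.05 the arms held 2, 1, 5 and 7 genes. Each arm held both positive and negative differences. Above 0 were 4 of 7 uptake genes, 3 of 7 storage genes, 4 of 11 synthesis genes and 11 of 20 oxidation genes, beside 48% of all genes.

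**Figure D2:**
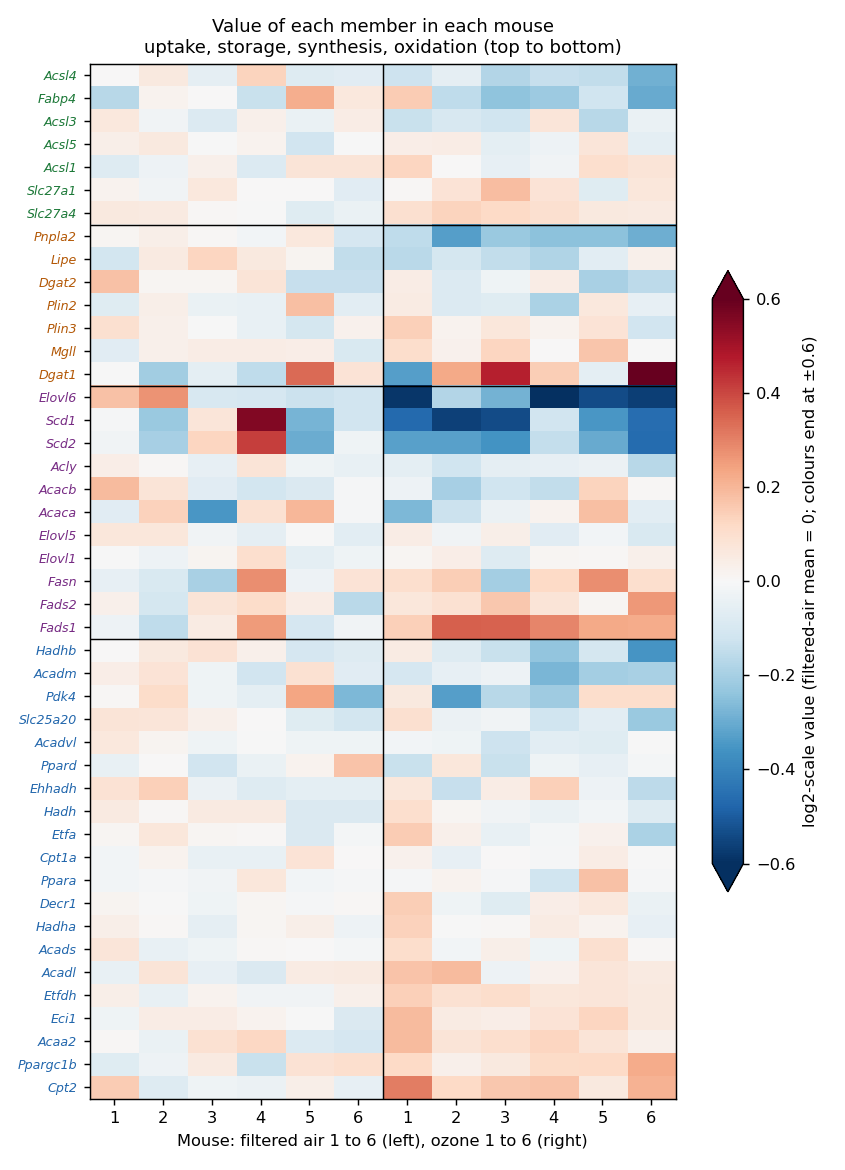
Value of each of the 45 members (rows, by arm) in each of the 12 mice (columns) on the log2 scale, with blue below and red above the filtered-air mean. Below 0 in all 6 ozone mice are Acsl4, Pnpla2, Elovl6, Scd1, Scd2, Acly, Acadm and Acadvl, and above 0 in all 6 are Slc27a4, Fads1, Fads2, Cpt2, Acaa2, Eci1, Etfdh and Ppargc1b.

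In uptake and activation, the member with the smallest p was Acsl4, an acyl-CoA synthetase that prefers arachidonic acid and other polyunsaturated fatty acids. Its filtered-air values ran from -0.075 through a median of -0.024 to 0.13, and its ozone values from -0.29 through -0.14 to -0.055. Of the 6 ozone mice, 5 lay below every filtered-air mouse. The difference was -0.16 (SE 0.0482), which did not pass after adjustment (limma adjusted p = 0.0927). Slc27a4, a fatty acid transport protein, had filtered-air values from -0.072 through 0.0012 to 0.056 and ozone values from 0.055 through 0.097 to 0.13. The groups overlapped narrowly, with 5 of 6 ozone mice above every filtered-air mouse, and the difference of 0.094 (SE 0.0350) was not called (limma adjusted p = 0.171).

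Fabp4, a fatty acid carrier protein that marks these macrophages, had a lower mean after ozone with much overlap. It ranged from -0.17 to 0.22 in filtered air and from -0.30 to 0.15 after ozone, and its difference of -0.15 had a 95% interval from -0.31 to 0.020. Ozone mouse 1, at 0.15, stood above the other ozone mice, which lay between -0.30 and -0.12. Among the other synthetases and transporters the differences were -0.081 in Acsl3, 0.0022 in Acsl5, 0.041 in Acsl1 and 0.059 in Slc27a1, none of them called. For Acsl5 the 95% interval ran from -0.084 to 0.088.

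In droplet storage the called member was Pnpla2, which encodes adipose triglyceride lipase, the enzyme that takes the first fatty acid off stored triglyceride. Pnpla2 lies on chromosome 7 from 141455188 to 141460743 in GRCm38. Its filtered-air values ran from -0.099 through a median of 0.0082 to 0.064, and its ozone values from -0.33 through -0.25 to -0.15. All 6 ozone mice lay below all 6 filtered-air mice. Pnpla2 fell by 0.25 (SE 0.0401, limma adjusted p = 0.00355), with a difference of -0.30 in flow-sort batch 1 and of -0.19 in batch 2. If the gene had enough reads for the scale to be a true log2 scale, this would be a change of -15.8%. Leaving out any 1 of the 12 mice kept the call.

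The 250 bases before the start of Pnpla2 (RefSeq, GRCm38.p6, plus strand, chr7:141454938-141455187) are shown because it is a called member whose promoter the table holds. Capitals mark the 2 matches, with at most 1 mismatch, to the sterol response element letters TCACNCCAC, 1 on each strand. These elements are bound by the lipid-sensing SREBP transcription factors.
Pnpla2: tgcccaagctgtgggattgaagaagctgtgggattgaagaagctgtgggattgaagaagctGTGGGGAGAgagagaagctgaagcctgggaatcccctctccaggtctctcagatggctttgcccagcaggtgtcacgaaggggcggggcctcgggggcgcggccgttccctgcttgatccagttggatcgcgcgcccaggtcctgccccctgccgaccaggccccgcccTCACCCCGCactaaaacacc
The same letters matched in 11 of the 36 members that have such a window (30.6%), beside 23% of the 27025 genes in the table and 20.7% of its 32851 windows. A match describes the letters only.

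The other lipases were not called. Lipe, hormone-sensitive lipase, had filtered-air values from -0.15 through 0.036 to 0.13 and ozone values from -0.18 through -0.13 to 0.032. The groups overlapped, and the difference of -0.10 (SE 0.0535) was not called (limma adjusted p = 0.358). Mgll, which releases the last fatty acid, had a difference of 0.071 with a 95% interval from -0.021 to 0.16. The droplet coat genes Plin2 and Plin3 differed by -0.047 and 0.037. For Plin2 the interval ran from -0.16 to 0.069. Leaving out 1 mouse gave differences from -0.071 (without ozone mouse 5) to -0.0062 (without filtered-air mouse 5) in Plin2. In Plin3 the lowest was 0.013, when filtered-air mouse 5 was dropped, and the highest 0.071, when ozone mouse 6 was.

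The enzymes that complete triglyceride synthesis also showed no call. Dgat2 differed by -0.061. Dgat1 had the widest spread of any member after ozone, from -0.33 through a median of 0.19 to 0.75, with an SD of 0.379 against 0.197 in filtered air. Ozone mouse 6 held the highest value and ozone mouse 1 the lowest, and the mean difference of 0.20 had a 95% interval from -0.12 to 0.52. It was 0.079 without ozone mouse 6 and 0.32 without ozone mouse 1, the ends of the range over the fits that left out 1 mouse.

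**Figure D3:**
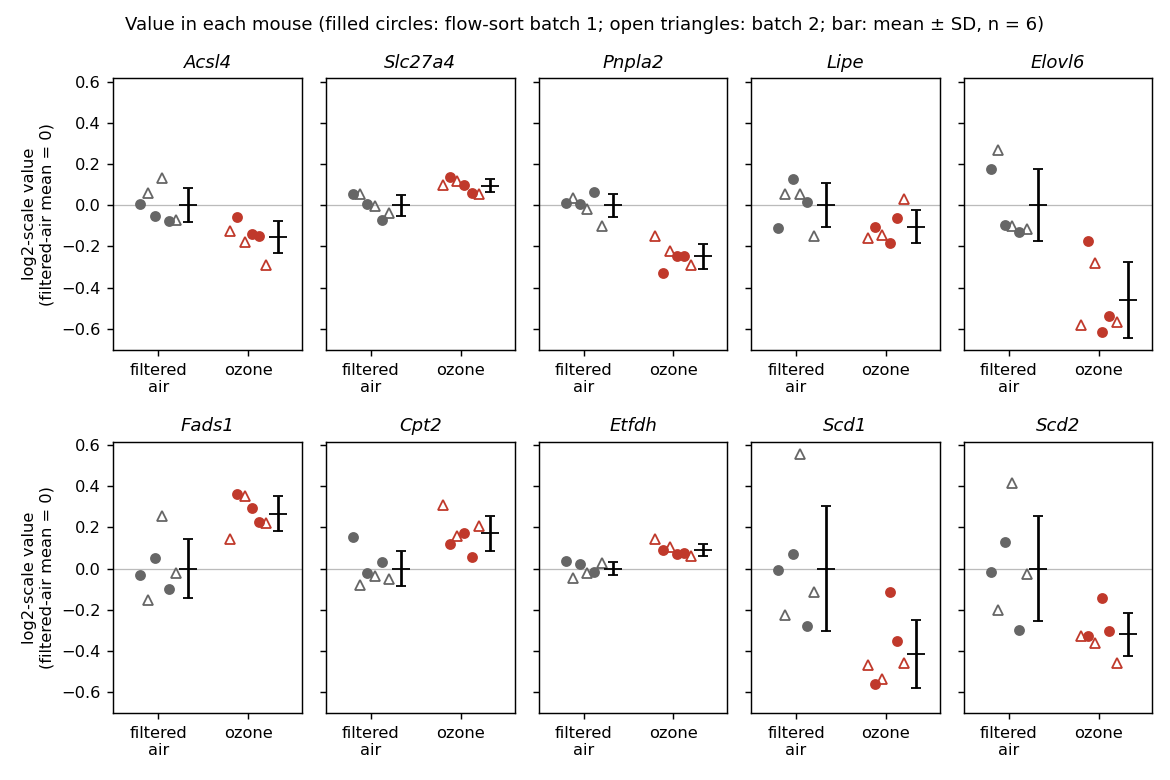
Value of 10 members in each mouse on the log2 scale (vertical axis), with grey for filtered air, red for ozone, filled circles for flow-sort batch 1, open triangles for batch 2, and mean ± SD beside each group. In Pnpla2, Elovl6 and Etfdh the groups do not overlap, and in Scd1 and Scd2 filtered-air mouse 4 stands highest, at 0.56 and 0.42.

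Among the 45 members, the 3 differences of largest size lay in synthesis and desaturation, in Elovl6, Scd1 and Scd2. Elovl6, the elongase that turns palmitate into stearate, lies on chromosome 3 from 129532386 to 129638495 in GRCm38. Its filtered-air values ran from -0.13 through a median of -0.098 to 0.27, and its ozone values from -0.62 through -0.55 to -0.18. All 6 ozone mice lay below all 6 filtered-air mice, although ozone mice 2 and 3, at -0.18 and -0.28, stood nearer to them than the other 4. Elovl6 fell by 0.46 (SE 0.0913, limma adjusted p = 0.0111), a change of -27.3% if the scale were a true log2 scale at its depth. The difference was -0.43 in batch 1 and -0.49 in batch 2. Leaving out any 1 mouse kept the call. Quantile normalization, run on values already set to the filtered-air mean, ended it (difference -0.43, limma adjusted p = 0.112).

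The 250 bases before the start of Elovl6 (RefSeq, GRCm38.p6, plus strand, chr3:129532136-129532385) are shown as those of the second called member with a window. They hold no match to TCACNCCAC with up to 1 mismatch, to CACGTG (an E box), or, with up to 2 mismatches, to the DR1 repeat bound by PPAR receptors with RXR (AGGTCA, any 1 base, AGGTCA), on either strand, and so carry no capitals.
Elovl6: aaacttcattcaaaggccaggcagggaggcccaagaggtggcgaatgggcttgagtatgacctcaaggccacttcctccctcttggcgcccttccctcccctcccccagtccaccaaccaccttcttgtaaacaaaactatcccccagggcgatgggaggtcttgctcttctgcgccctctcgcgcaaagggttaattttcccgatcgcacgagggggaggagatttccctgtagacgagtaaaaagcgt
Over all genes with a window, 6.86% held the E box and 3.72% the PPAR repeat, beside 4 and 3 of the 36 members. The absence of a match says only that these letters are not in this window.

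The stearoyl-CoA desaturases Scd1 and Scd2, which place the double bond that makes oleate from stearate, had lower means after ozone that did not pass the test. Scd1 ran from -0.28 through a median of -0.061 to 0.56 in filtered air and from -0.56 through -0.46 to -0.11 after ozone. Scd2 ran from -0.30 through -0.023 to 0.42 and from -0.46 through -0.33 to -0.14. In both genes 5 of 6 ozone mice lay below every filtered-air mouse, and ozone mouse 4 was the highest of its group. The differences were -0.41 in Scd1 (limma adjusted p = 0.0729) and -0.32 in Scd2 (adjusted p = 0.0877).

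Filtered-air mouse 4, at 0.56 in Scd1 and 0.42 in Scd2, also had the lowest RNA integrity number, 8.9, and the highest filtered-air mean in 7 of 11 marker lists of other cells. Among these were B cells (0.38), neutrophils (0.34), monocyte-derived macrophages (0.31), type 2 epithelial cells (0.28) and T and NK cells (0.27). The part of these other cells in the result was not tested. With RNA integrity as a covariate the differences were -0.37 in Scd1 (limma adjusted p = 0.0594) and -0.28 in Scd2 (adjusted p = 0.0576). Without this mouse the differences were -0.29 (limma adjusted p = 0.0540) and -0.23 (adjusted p = 0.0997). Without filtered-air mouse 5 both were called, at -0.48 (adjusted p = 0.0467) and -0.39 (adjusted p = 0.0321), and without ozone mouse 4 Scd1 was called at -0.48 (adjusted p = 0.0447). Of the 12 fits that each left out 1 mouse, 10 did not call Scd1 (limma adjusted p from 0.0540 to 0.154). For Scd2, 11 did not (adjusted p from 0.0695 to 0.174). After quantile normalization neither was called, at -0.30 (limma adjusted p = 0.367) and -0.23 (adjusted p = 0.464). Scd1 and Scd2 are close relatives that lie in 1 gene cluster on chromosome 19, and how reads common to both were divided is not given in the sources used here.

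Fads1 moved the other way. It encodes the desaturase that makes the last double bond of arachidonic acid, and lies on chromosome 19 from 10182877 to 10196874 in GRCm38. Filtered-air values ran from -0.15 through a median of -0.025 to 0.25, and ozone values from 0.14 through 0.26 to 0.36. Of the 6 ozone mice, 3 lay above every filtered-air mouse, and the groups overlapped only through filtered-air mouse 4 at 0.25. Fads1 rose by 0.27 (SE 0.0635, limma adjusted p = 0.0286), a change of 20.3% on a true log2 scale, with 0.32 in batch 1 and 0.21 in batch 2. Leaving out 1 mouse ended the call in 8 of 12 cases, those of filtered-air mice 1, 2, 5 and 6 and of ozone mice 2, 3, 4 and 5. In these the adjusted p lay between 0.0503 and 0.0730 and the difference between 0.23 and 0.28. Without filtered-air mouse 4 the difference was 0.32 (adjusted p = 0.00325). Quantile normalization also ended the call (0.23, adjusted p = 0.138).

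Fads2, its partner earlier in the same route, differed by 0.11 with a 95% interval from -0.0073 to 0.23 and was not called. Among the genes of palmitate synthesis 0 were called. Acly, which makes cytosolic acetyl-CoA, differed by -0.080 (95% interval from -0.16 to -0.00029, limma adjusted p = 0.297). Fasn, fatty acid synthase, differed by 0.090 with an interval from -0.087 to 0.27. Acaca and Acacb, the acetyl-CoA carboxylases, differed by -0.050 and -0.059. The elongases Elovl1 and Elovl5 differed by 0.0038 and -0.019, against -0.46 in Elovl6.

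In beta oxidation 0 of 20 genes were called, while 7 had an unadjusted p under 0.05, 5 of them higher and 2 lower. Etfdh passes electrons from the oxidation steps to ubiquinone, and its groups did not overlap. Filtered-air values ran from -0.045 through a median of 0.00078 to 0.036, and ozone values from 0.059 through 0.082 to 0.14. The difference was small, 0.090 (SE 0.0324), and was not called (limma adjusted p = 0.152). Cpt2, the inner carnitine palmitoyltransferase, ran from -0.079 through -0.029 to 0.15 in filtered air and from 0.057 through 0.17 to 0.31 after ozone. Of the 6 ozone mice, 4 lay above every filtered-air mouse. Its difference of 0.17 (SE 0.0497) missed the threshold (limma adjusted p = 0.0722), and passed it without filtered-air mouse 1, at 0.20 (adjusted p = 0.0313). The other 11 fits that left out 1 mouse did not call Cpt2 (limma adjusted p from 0.0537 to 0.157).

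The other 3 genes with a higher mean at an unadjusted p under 0.05 were Eci1, an enoyl-CoA isomerase (0.091), Ppargc1b, a coactivator of mitochondrial genes (0.11), and Acaa2, the mitochondrial thiolase (0.10). Their adjusted p-values in limma were 0.247, 0.263 and 0.292. The 2 lower genes were Acadm, medium-chain acyl-CoA dehydrogenase (-0.14, limma adjusted p = 0.157), and Hadhb, the thiolase subunit of the trifunctional protein (-0.14, adjusted p = 0.242). Hadha, the other subunit of that complex, differed by 0.028 with a 95% interval from -0.053 to 0.11. Acadl and Acadvl, the dehydrogenases of longer chains, differed by 0.080 and -0.051.

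Cpt1a, the gatekeeper of mitochondrial entry, differed by 0.0026 with a 95% interval from -0.071 to 0.076. Differences in Slc25a20, Acads, Hadh, Decr1, Etfa and Ehhadh lay between -0.062 and 0.034. Among the regulators, Pdk4 differed by -0.073 and Ppard by -0.048, and neither was called. Ppara, the receptor that drives oxidation genes in liver, was close to the lowest measurable level. By the filter's rule 7 of the 12 mice counted as above the value shared by mice without a read, so its difference of 0.0097 carries little information. The rule misses a lowest value held by only 1 mouse of a batch, as in ozone mouse 4 (-0.12). By the same rule the other 44 members counted as above that value in every mouse.

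Further genes of the pathway were taken from a list of 106 that holds none of the members. Of these, 101 were tested and 3 were called, all lower, or 2.97% beside 4.25% of all genes. At an unadjusted p under 0.05 there were 28, or 27.7% beside 16.7% of all genes. By role, the called genes were 1 of 10 in uptake, 1 of 26 in storage, 1 of 27 in synthesis and 0 of 38 in oxidation.

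Cd36, the fatty acid and oxidized lipoprotein receptor, ran from -0.076 through a median of -0.00059 to 0.068 in filtered air and from -0.60 through -0.43 to -0.31 after ozone. All 6 ozone mice lay below all filtered-air mice. Cd36 fell by 0.46 (SE 0.0513, limma adjusted p = 0.000402). Its SD was 0.111 after ozone and 0.0566 in filtered air, and leaving out any 1 mouse kept its call.

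Insig1, which holds SREBP in the endoplasmic reticulum and is itself a target of SREBP, ran from -0.18 through -0.0046 to 0.14 in filtered air and from -0.43 through -0.33 to -0.21 after ozone. The groups did not overlap, and Insig1 fell by 0.33 (SE 0.0609, limma adjusted p = 0.00758), a call that quantile normalization ended (-0.27, adjusted p = 0.109). G0s2, an inhibitor of the lipase encoded by Pnpla2, ran from -0.17 through 0.035 to 0.17 and from -0.41 through -0.26 to -0.087, with 5 of 6 ozone mice below every filtered-air mouse. G0s2 fell by 0.26 (SE 0.0645, limma adjusted p = 0.0320), with -0.42 in batch 1 and -0.11 in batch 2. Leaving out 1 mouse ended its call in 8 of 12 cases, those of filtered-air mice 1, 3, 5 and 6 and of ozone mice 1, 2, 4 and 5, with adjusted p-values from 0.0517 to 0.0781 and differences from -0.27 to -0.23. Its call was also lost with a variance trend (limma adjusted p = 0.0530) and after quantile normalization (-0.23, adjusted p = 0.184). Both settings work on values without abundance, which limits what they can show. In oxidation the smallest p belonged to Acot1, a cytosolic acyl-CoA thioesterase with close relatives, which differed by -0.21 (limma adjusted p = 0.0693). Ozone mouse 1 stood at 0.027 and the other ozone mice between -0.35 and -0.15. Acot1 was called without this mouse (-0.27, limma adjusted p = 0.00940), without filtered-air mouse 4 (-0.25, adjusted p = 0.0421) and without the batch term (adjusted p = 0.0454). Over the 12 fits that each left out 1 mouse its adjusted p ran from 0.00940 to 0.149.

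**Figure D4:**
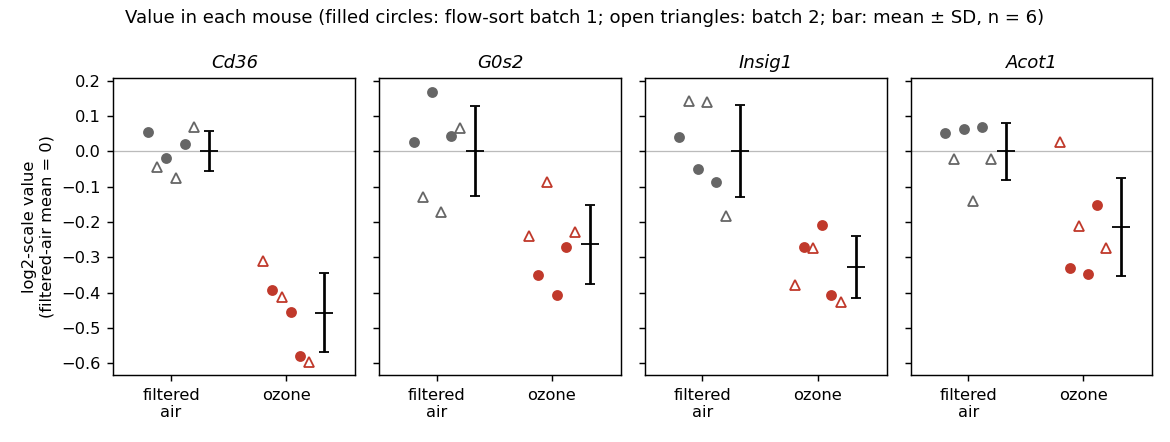
Value of 4 further pathway genes in each mouse on the log2 scale (vertical axis), with grey for filtered air, red for ozone, filled circles for flow-sort batch 1, open triangles for batch 2, and mean ± SD beside each group. In Cd36 and Insig1 every ozone mouse lies below every filtered-air mouse, while G0s2 and Acot1 overlap.

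The ozone difference was then compared between the flow-sort batches, which hold 3 mice of each group. Of the 45 members, 34 had the same direction in both, among them the 3 called ones, while over all genes 63.8% did. All 7 storage genes, 6 of 7 uptake genes, 7 of 11 synthesis genes and 14 of 20 oxidation genes kept their direction. In limma's interaction test 0 members were called, with a smallest adjusted p of 0.9998, and 0% of all genes were called. At an unadjusted p under 0.05 there were 2 members, Fasn and Cpt2, beside 2.6% of all genes. Fasn differed by 0.27 in batch 1 and by -0.091 in batch 2, and Cpt2 by 0.062 and 0.28.

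**Figure D5:**
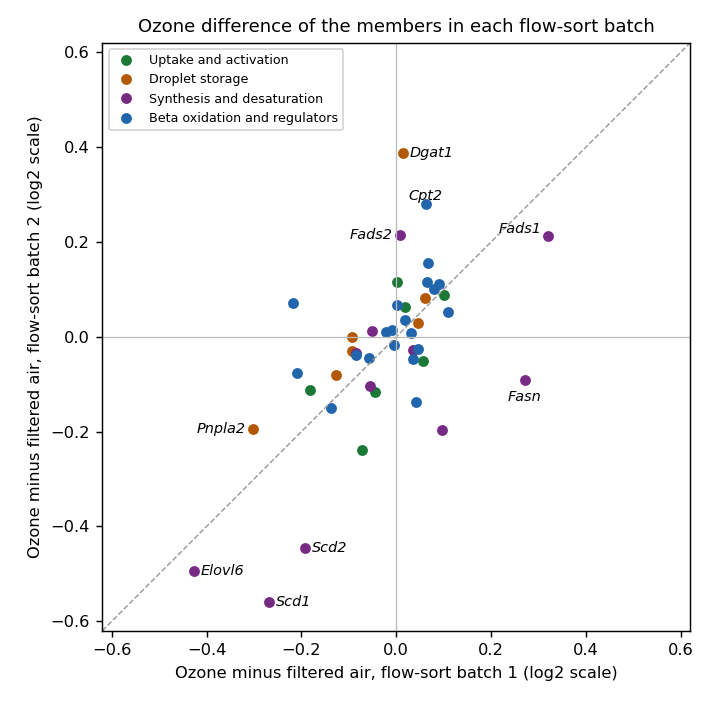
Ozone minus filtered air of each member in flow-sort batch 1 (horizontal axis) and batch 2 (vertical axis) on the log2 scale, with the dashed line where both are equal. Elovl6, Scd1, Scd2 and Pnpla2 lie low in both batches and Fads1 lies high in both, while Fasn has opposite signs.

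Markers were used to check the sorted cells. All 12 listed markers of alveolar macrophages lay above the lowest value in every mouse, and 4 of them were called, Car4 and Chil3 higher and Krt79 and Adgre1 lower, or 33.3% beside 4.25% of all genes. Of 64 tested markers of other cells in 11 lists, 2 were called, Cxcr2 higher and Epcam lower, or 3.12%. At an unadjusted p under 0.05 in limma were 3 of 10 monocyte-derived macrophage markers (30%). Airway epithelium and fibroblasts had 2 of 6 each (33.3%), beside 16.7% of all genes, while endothelium and T and NK cells had 0. The type 2 epithelial list, whose cells also make fatty acids for surfactant, had 0 of 8 called and 1 at an unadjusted p under 0.05, with list means from -0.14 to 0.063 after ozone and from -0.20 to 0.28 in filtered air. The adipocyte list had 0 of 4 tested genes called and 1 at an unadjusted p under 0.05. Of the tested genes, Plin1, Plin4 and Cidec are droplet genes that also stand in the list of further pathway genes, so they are no separate check. Adipoq did not pass the filter, and Lep and Cfd held 1 value in all 12 mice, as genes without reads do. B-cell markers had differences below 0 in 5 of 5 genes, with a median of -0.26. By limma 0 of the 5 were called and 3 had an unadjusted p under 0.05, or 60% beside 16.7% of all genes. Their list means ran from -0.44 to -0.077 after ozone and from -0.23 to 0.38 in filtered air, and their part in the member differences was not tested.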

How the data were processed

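RNA of sorted macrophages was sequenced in 12 mice, 6 per group. The deposited values are on a log2 scale and, per the deposited file's name, are variance-stabilized and batch-corrected. The submitters' processing notes list cutadapt, STAR 2.7.7a, Salmon 1.5.2, DESeq2 1.26.0, R 3.6.0, limma 3.42.2 and build mm10, without saying what each did. The 12 columns matched the sample titles and 0 were left over. The largest filtered-air mean of a gene was 2.38e-08 and the largest difference between batch means 5.3e-08, so the filtered-air mean and the batch difference had been removed.

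Genes were kept where at least 6 of 12 mice lay above the lowest value that mice of a flow-sort batch shared, which removed 5811 of 25444 varying genes. Differences were fitted in R 4.3.3 by limma 3.58.1, without a mean-variance trend and with a term for the sorting batch, and the pipeline was tested on simulated data. Relative depth is the inverse square of the step that 1 read adds at the lowest values. The precision of each value is given by its SE over mice. Labels give separate mice, so p-values measure the spread between animals.

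Members and lists were chosen with earlier results of these data known. Values are given by mouse for members that were called, had separate groups or had the 2 smallest p-values of their arm. Scd1, Scd2, Fabp4, Dgat1 and the other members were added after values were seen, as were Cxcr2, Epcam, Car4, Chil3, Krt79 and Adgre1. Among other pathway genes, those called and the smallest p of each role were named. Alternatives were other filters, variance priors, covariates, scalings, single batches, a replicate block and leaving out each mouse. Promoters were matched by symbol to RefSeq for 36 of 45 members; Acaa2, Decr1, Dgat1, Dgat2, Fabp4, Fads1, Ppargc1b, Scd1 and Scd2 did not match.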

Additional observations from a re-analysis of the deposited data

How the results depend on the processing

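The 3 called members were the same genes without a filter, with only genes above the minimum in all 12 mice, with a variance trend, with the robust fit, with RNA integrity as a covariate and after median centring. Quantile normalization gave 1 member (Pnpla2) and 171 of all genes. Flow-sort batch 1 alone, with 3 mice per group, gave 1 member (Pnpla2, limma adjusted p = 0.0474) and 115 of 19626 genes, with a storage median of -0.092. Batch 2 alone gave 0 members and 7 of 19625 genes, with medians of -0.051 in uptake and -0.00068 in storage; both use fewer mice. These fits leave out genes that hold 1 value throughout the batch. With those genes kept, an alternative chosen after seeing the data, limma called 90 of 19633 genes in batch 1 and 0 in batch 2. Of these 19633 genes, 2167 in batch 1 and 1800 in batch 2 had an unadjusted p under 0.05. This fit called 0 of the 45 members in either batch, with 5 and 8 at an unadjusted p under 0.05, and Pnpla2 in batch 1 had an adjusted p of 0.0518. The medians were the same. Quantile normalization was run on values set to the filtered-air mean, which hold no abundance. It makes the spread of these values alike in every mouse, ozone differences included, so its lost calls cannot be read as a fault of scaling between libraries. Their cause was not tested. Among the 8 members named by rule, Elovl6 and Fads1 lost their call with quantile normalization and in single batches, and Pnpla2 in batch 2. Cpt2 was also called without the batch term, a fit that counts a degree of freedom already used by the batch correction. Leaving out 1 mouse gave 2 to 4 called members, always with Pnpla2 and Elovl6, and 538 to 751 genes, fewest without filtered-air mouse 1. Medians then ran from -0.023 to 0.016 in uptake, -0.068 to -0.0062 in storage, -0.089 to -0.017 in synthesis and -0.0063 to 0.026 in oxidation. The uptake and oxidation medians changed sign among these fits. The interaction test called 0 members in each setting run.

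The labels number the mice of each group from 1 to 6, and mice that share a number are different animals. Their deviations from the group means correlated between -0.0026 and 0.28, not over 0.1 in every pair, so the samples were not treated as paired. Mice numbered 1, 2, 3 and 4 came from different flow-sort batches in the 2 groups, so a block on the number does not follow the sorting. With the replicate block 6 members were called, Pnpla2, Elovl6 and Fads1 together with Scd1, Scd2 and Cpt2, and 853 genes, Acot1 among them (limma adjusted p = 0.0209).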

Other observations

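Filtered-air mouse 4 held the highest value of its group in 7 of the 11 synthesis and desaturation genes. Ozone mouse 1 held the highest value of its group in 11 of the 20 oxidation genes, with an arm mean of 0.091, while ozone mouse 6 held the lowest in 8. These are descriptions, with no test. Over the whole list, the SD was larger after ozone than in filtered air in 24 of 45 members, 53.3% beside 51.4% of all genes.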
